A study of Homo sapiens with 16 samples.

Results

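The genes described here encode the enzymes that copy chromosomal DNA and that join the short lagging-strand pieces: the polymerase α-primase subunits POLA1, POLA2 and PRIM1, the polymerase δ subunits POLD1 and POLD3, the polymerase ε subunits POLE and POLE2, and PCNA, FEN1 and LIG1. They were taken by gene symbol, and all 10 were found among the 12676 genes of the deposited count table. The 4 RNA-seq libraries came from H1299, an established line of human non-small cell lung cancer that lacks functional p53. They form 2 groups of 2, cells infected with a virus carrying a non-targeting control shRNA (shNT) and cells infected with one against YEATS2 (shYEATS2), a histone acetylation reader and subunit of the ATAC acetyltransferase complex. According to the labels, all cells received viral supernatant with polybrene at 8 µg/ml for 48 h. Puromycin at 2 µg/ml followed for 4 to 7 days. This protocol was the same for both groups, but the labels give no exact day for any library. Equal selection times can therefore not be assumed, and the methods of the paper state a shorter selection. The YEATS2 shRNA was shY2-1, a name that the labels do not give. With this shRNA alone, loss of YEATS2 and other effects of the shRNA cannot be told apart. The paper also reports RNA-seq with a weaker YEATS2 shRNA, where only part of the downregulated genes were shared. The replicates of each group are independent and biological by the description of the study, and the labels say nothing of separate infections.

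At a replication fork, polymerase α-primase lays down an RNA-DNA primer that the other replicative polymerases extend, polymerase ε mainly on the leading strand and polymerase δ on the lagging strand. PCNA is the ring-shaped clamp that tethers polymerase δ to DNA and serves as a platform for other replication enzymes. Each lagging-strand piece, an Okazaki fragment, is finished when the flap nuclease FEN1 removes the displaced primer and DNA ligase I, the product of LIG1, seals the nick. Transcription of many of these genes is known to depend on E2F factors and to rise as cells enter S phase.

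The promoters are shown because these genes moved together and E2F sites are known in several of them. RefSeq (GRCh38.p14) gave 11 promoter windows, from 250 bases before to 50 bases after an annotated start, for 9 of the 10 genes, with none for POLD3. The E2F words TTTCCCGC, TTTGGCGC, TTTCGCGC and TTTGCCGC were searched on both strands. At least 1 of them lay in 6 of the 11 windows, each of a different gene, and in 3.31% of all 35116 promoters of the same length. Counted by gene, 6 of the 9 held one, against 6.88% of the 9859 genes of the count table that had a promoter there. Each line gives 30 bases read 5′ to 3′ on the strand of the gene, with the word in capitals.
POLA1, chrX:24693770-24693799, plus strand: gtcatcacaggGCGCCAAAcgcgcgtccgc
POLA2, chr11:65261898-65261927, plus strand: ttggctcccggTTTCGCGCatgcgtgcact
POLE, chr12:132687342-132687371, minus strand: tgggtgggagcGCGCCAAAtttctcccctg
POLE2, chr14:49688201-49688230, minus strand: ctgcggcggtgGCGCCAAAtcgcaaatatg
PCNA, chr20:5126663-5126692, minus strand: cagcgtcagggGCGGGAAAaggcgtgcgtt
LIG1, chr19:48170440-48170469, minus strand: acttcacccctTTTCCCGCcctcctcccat

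The word of POLA1, POLE and POLE2 was the same, TTTGGCGC, read on the opposite strand, and that of PCNA and LIG1 was TTTCCCGC. Read on the strand of the gene, the first base of the match lay between 137 bases before the start in POLA1 and 5 bases before it in POLE2. The 8 bases of the match in POLE2 thus ran across the start. In PCNA and LIG1 the E2F word overlapped a GC box, GGGCGG, on one strand or the other. A GC box was found in 7 of the 11 windows, the CCAAT box (CCAAT) in 5 and the CHR element (TTTGAA) in none, against 45.0%, 34.6% and 15.2% of all promoters. Counted by gene, these were 6, 4 and 0 of the 9, against 78.4%, 43.7% and 13.3% of the same 9859 genes. By gene, the GC box was thus not more frequent than in the table, and the CCAAT box was about as frequent. The genes without an E2F word in these windows were PRIM1, POLD1 and FEN1. A match of letters is a description of the sequence and not of binding.

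**Figure D1:**
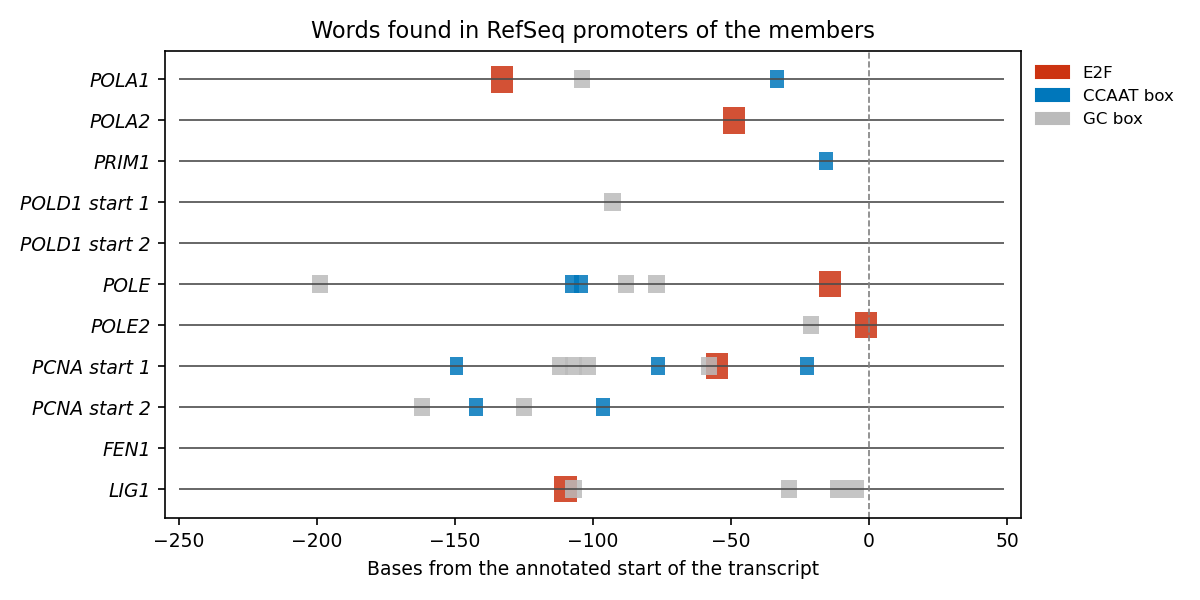
Positions of E2F words, CCAAT boxes and GC boxes in 11 RefSeq promoters of 9 genes, in bases from the annotated start (0, dashed line). E2F words appear in 6 genes, with the first base on the gene strand at 137 to 5 bases before the start.

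The listed genes received between 34718921 and 39417787 reads per library. The targeted transcript was checked first. YEATS2 had 4482 and 4104 scaled reads with shNT and 665 and 673 with shYEATS2, and the knockdown libraries hardly differed from each other in it. Counts are given after TMM scaling for library size and composition, as scaled reads at the mean library size. Of the line's markers, KRT8 (at least 10181 scaled reads in each library), KRT18 (at least 7983) and VIM (at least 78728) were abundant and none of them passed the test, whereas KRT19 and the leukocyte, endothelial and fibroblast markers PTPRC, CD3E, PECAM1 and COL1A1 were not analysed here.

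All 10 genes were lower after YEATS2 knockdown in both libraries, and 9 of them fell at a false discovery rate (FDR) under 0.01. FDR values are Benjamini-Hochberg adjusted p-values over all 12676 genes, from the quasi-likelihood test of edgeR, and SE is the standard error of a log2 fold change. None rose by edgeR, DESeq2 or exactTest, and 0 were higher at an unadjusted p under 0.05. Among all genes tested, 12.5% were called lower and 12.9% higher. In each of the 10 genes both shYEATS2 libraries lay below both shNT libraries, which held for 39.8% of all genes. The median log2 fold change of the 10 genes was -1.26, with a range from -1.75 for FEN1 to -0.79 for POLA2, beside a median of -0.00188 over all genes tested. FEN1 ranked as the 54th lowest and POLE2 as the 60th lowest of the 12676 log2 fold changes, while POLA2 ranked 1063rd. RNA was taken from whole cultures, so fewer cells in S phase and less of each transcript per cell cannot be told apart. By flow cytometry, the paper reports G1 arrest in YEATS2 knockdown cells, which the RNA counts do not measure.

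The one member that was not called was POLA2, with an FDR of 0.0153 (edgeR's quasi-likelihood test). It was called lower by DESeq2 (FDR 0.000149) and by edgeR's exactTest (FDR 0.000483), so that all 10 passed with either. Without shNT replicate 1 the number called lower was 7, because POLD3 (FDR 0.0139) and POLE (FDR 0.0164) no longer passed the same edgeR test. Without shYEATS2 replicate 1 all 10 were called, POLA2 with an FDR of 0.00122.

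**Figure D2:**
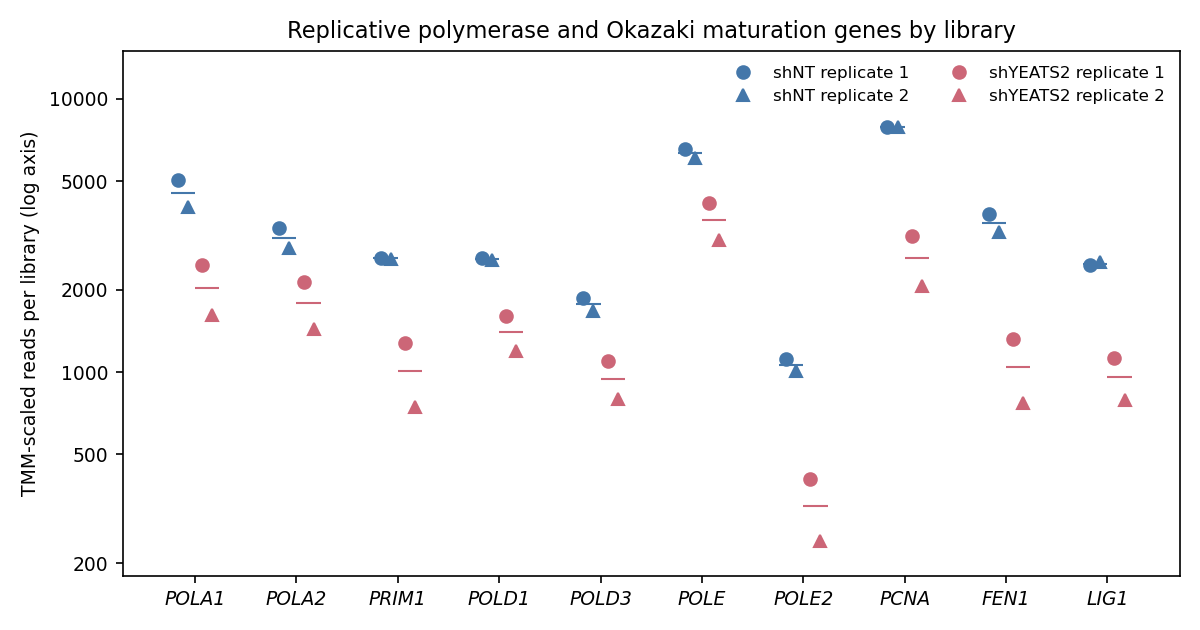
TMM-scaled reads (log axis) of the 10 genes in each library. Circles are replicate 1 and triangles replicate 2 of shNT (blue) and shYEATS2 (red), and bars are group means of 2 libraries. In every gene both red points lie below both blue points, and the red triangle lies below the red circle.

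Of the polymerase α-primase genes, PRIM1 fell most. It encodes the catalytic primase subunit, which makes the RNA primer, and lies on chromosome 12 of GRCh37 from 57124222 to 57146158. PRIM1 had 2626 and 2605 scaled reads with shNT and 1274 and 745 with shYEATS2. The shNT libraries were nearly equal, whereas the knockdown libraries were 48.7% and 28.5% of their mean. The log2 fold change was -1.37 (SE 0.23, FDR 0.00416, edgeR's quasi-likelihood test).

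POLA1 encodes the catalytic polymerase subunit and lies on chromosome X from 24711990 to 25015103. It had 5030 and 4023 scaled reads with shNT and 2457 and 1615 with shYEATS2. Among the members POLA1 also differed most between the shNT libraries (replicate 2 against replicate 1, -0.32 on the log2 scale), and the groups still did not overlap. Its log2 fold change was -1.15 (SE 0.21, FDR 0.00548, edgeR's quasi-likelihood test).

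POLA2 encodes the second, regulatory subunit of polymerase α and lies on chromosome 11 from 65029384 to 65073430. It had 3381 and 2835 scaled reads with shNT and 2146 and 1439 with shYEATS2. The groups did not overlap. Replicate 2 differed from replicate 1 by -0.25 with shNT and -0.58 with shYEATS2 on the log2 scale. In POLA1, which was called, these differences were larger (-0.32 and -0.61). The log2 fold change of POLA2 was -0.79 (SE 0.19), the smallest fall of the members, and did not pass the threshold as given above.

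Both polymerase δ genes among the members changed by nearly the same amount, and the other subunit genes are given further below. POLD1 encodes the catalytic and proofreading subunit (chromosome 19, 50887461 to 50921275), and POLD3 encodes an accessory subunit that binds PCNA (chromosome 11, 74204896 to 74380162). POLD1 had 2617 and 2582 scaled reads with shNT and 1610 and 1196 with shYEATS2. POLD3 had 1869 and 1678 scaled reads with shNT and 1097 and 798 with shYEATS2. Neither gene had overlapping groups, and the knockdown libraries of each stood at 62.0% and 46.0% (POLD1) or 61.8% and 45.0% (POLD3) of the control mean. The log2 fold changes were -0.89 for POLD1 (SE 0.15, FDR 0.00411) and -0.91 for POLD3 (SE 0.16, FDR 0.00525, both by edgeR's quasi-likelihood test).

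Both polymerase ε genes among the members fell, and the other subunit genes of this polymerase are given further below. POLE encodes the catalytic subunit, which has proofreading activity (chromosome 12, 133200339 to 133263962), and POLE2 encodes the second, non-catalytic subunit (chromosome 14, 50110273 to 50155140). POLE had 6555 and 6085 scaled reads with shNT and 4174 and 3056 with shYEATS2. POLE2 had 1118 and 1011 scaled reads with shNT and 405 and 241 with shYEATS2. POLE thus kept 57.2% of its control level and POLE2 30.3%. The log2 fold changes were -0.81 for POLE (SE 0.15, FDR 0.00660) and -1.72 for POLE2 (SE 0.23, FDR 0.00218, both by edgeR's quasi-likelihood test). POLE2 was also the gene with the fewest reads among the members, 273 unscaled reads in shYEATS2 replicate 2.

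The clamp and the enzymes that finish Okazaki fragments had larger falls than the catalytic subunits POLA1, POLD1 and POLE. This did not hold for all polymerase and primase genes. The catalytic primase gene PRIM1 (log2 fold change -1.37) fell about as much as LIG1, and POLE2 (-1.72) fell more than PCNA. These differences were not tested. PCNA lies on chromosome 20 from 5095599 to 5107272 and had the most reads of the members in the shNT libraries. It had 7863 and 7877 scaled reads with shNT and 3142 and 2071 with shYEATS2. The shNT libraries differed by less than 0.01 on the log2 scale, and the fold change was -1.59 on that scale (SE 0.19, FDR 0.00158, edgeR's quasi-likelihood test).

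FEN1, with 2 exons in its canonical transcript, on chromosome 11 from 61560383 to 61564710, fell the most of all members. It had 3787 and 3270 scaled reads with shNT and 1322 and 772 with shYEATS2. It was thus 3.38-fold lower by the fit, with a log2 fold change of -1.75 (SE 0.24, FDR 0.00227, edgeR's quasi-likelihood test). LIG1, on chromosome 19 from 48618702 to 48673860, had 2466 and 2523 scaled reads with shNT and 1130 and 790 with shYEATS2. The shNT libraries of LIG1 lay close together and both knockdown libraries lay far below them. Its log2 fold change was -1.38 (SE 0.17, FDR 0.00168, edgeR's quasi-likelihood test).

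The order of the falls was FEN1, POLE2, PCNA, LIG1, PRIM1, POLA1, POLD3, POLD1, POLE and POLA2. FEN1, POLE2 and PCNA, LIG1 and PRIM1, and the last 4 genes of this order each lay within a standard error of their neighbours. Differences between genes were not tested, apart from the ratios that follow, whose test could not have passed with 2 libraries against 2. The 6 genes with an E2F word in the promoter window had log2 fold changes from -1.72 (POLE2) to -0.79 (POLA2), and the genes without one, PRIM1, POLD1 and FEN1, had -1.37, -0.89 and -1.75, so the ranges overlapped.

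Levels were compared between genes only per length, as scaled reads per kilobase of the canonical transcript in GENCODE (GRCh37). In the shNT libraries PCNA stood at 6168 ± 7.59 (SD, n = 2) reads per kilobase. PRIM1 followed with 1838 ± 10.8 and FEN1 with 1750 ± 182 (SD, n = 2). The other genes ranged from 877 ± 109 for POLA2 to 468 ± 35.6 for POLD3 (SD, n = 2). PRIM1 and FEN1 did not differ beyond their spread, and neither did POLA2, POLA1 and POLE. With the length of all annotated exons in place of the canonical transcript, PCNA remained the highest at 5609 reads per kilobase, whereas LIG1 became the lowest at 220 and PRIM1 stood at 790, so the order below PCNA depends on the length used.

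Ratios between 2 members in the same library do not depend on the scaling of the library. The ratio of POLE2 to POLE, per kilobase, was 0.789 and 0.768 with shNT and 0.448 and 0.365 with shYEATS2. The ratio was therefore lower in both knockdown libraries, by -0.94 on the log2 scale, and the gap was several times the spread within either group. The ratio of POLA2 to POLA1 moved the other way, from 1.04 and 1.09 to 1.35 and 1.38, and PRIM1 to POLA1 went from 2.01 and 2.50 to 2.00 and 1.78. The ratio of POLD3 to POLD1 was 0.648 and 0.590 with shNT and 0.618 and 0.605 with shYEATS2, and the groups overlapped.

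Among the Okazaki enzymes, LIG1 relative to FEN1 was 0.420 and 0.498 with shNT and 0.552 and 0.660 with shYEATS2. LIG1 relative to PCNA was 0.128 and 0.131 against 0.147 and 0.156. Both ratios were higher in the knockdown libraries without overlap, whereas FEN1 relative to PCNA was 0.305 and 0.263 against 0.266 and 0.236, with overlap. With 2 libraries against 2, an exact two-sided permutation test cannot go below p = 0.333, which 5 of the 7 ratios reached (0.467 after Benjamini-Hochberg adjustment over the 7). That test could not have passed for any ratio, and the ratios are given as a description.

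**Figure D3:**
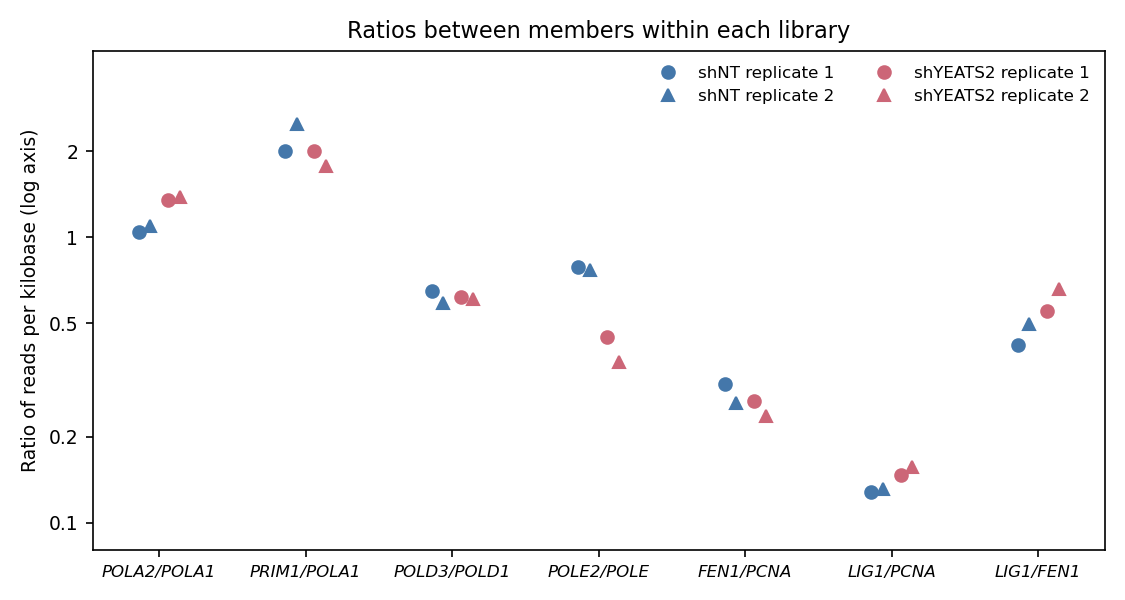
Ratios of reads per kilobase (log axis) between 2 members within the same library, for 7 pairs. Symbols are as in the plot of reads by library. POLE2/POLE is 0.789 and 0.768 with shNT and 0.448 and 0.365 with shYEATS2, and POLD3/POLD1 lies between 0.590 and 0.648.

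The 2 knockdown libraries differed from each other in every member. All 10 genes were lower in shYEATS2 replicate 2 than in replicate 1, by a median of -0.59 on the log2 scale, with a range from -0.78 for FEN1 to -0.43 for POLD1. Among all genes tested, 50.6% were lower in replicate 2, with a median of -0.00413. FEN1 in replicate 2 stood at 58.4% of its level in replicate 1 and POLD1 at 74.3%. The shift was shared by other genes of the replication fork, of which 30 of 32 were lower in shYEATS2 replicate 2, with a median of -0.47. Among them were all 10 genes for helicase activation and fork organisation (median -0.76) and all 9 genes for loading PCNA (median -0.52). Between the shNT libraries the median difference of the 10 members was -0.13, and 8 of them were lower in replicate 2. Among all genes tested, 49.9% were lower in shNT replicate 2, with a median of 0.000447. The median log2 fold change of the members was -0.96 when shYEATS2 replicate 2 was left out and -1.57 when replicate 1 was, so its size, though not its sign, moved with the library used.

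**Figure D4:**
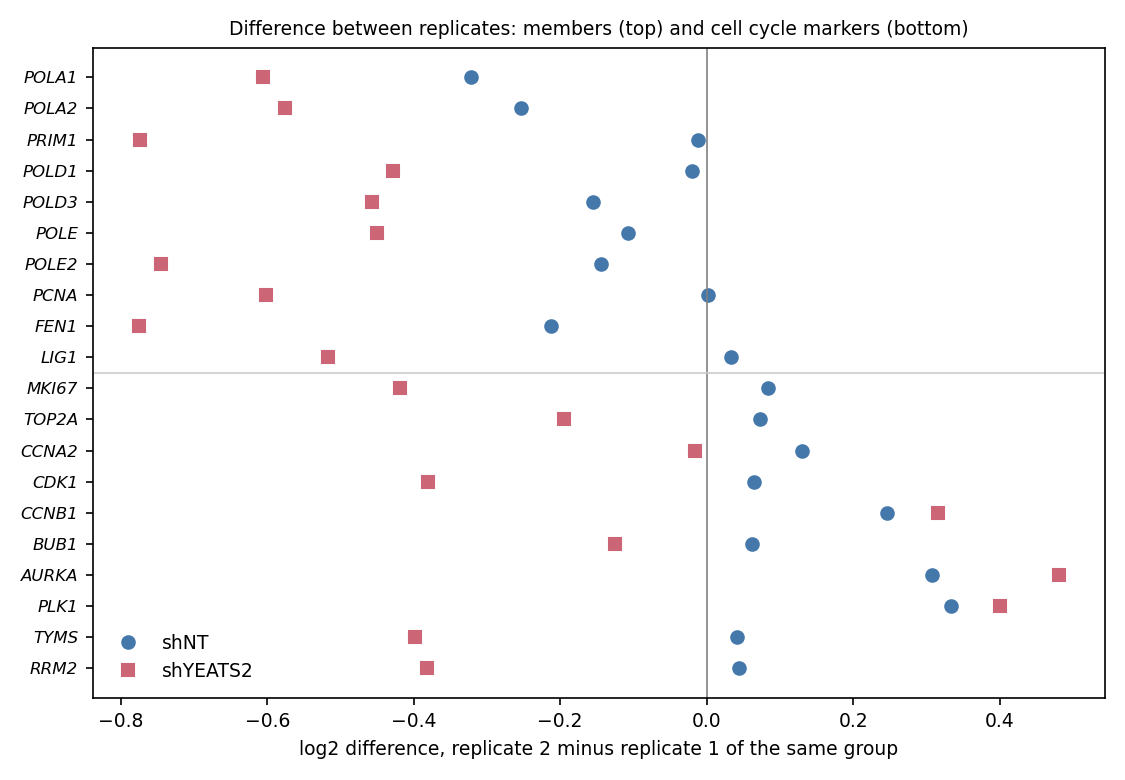
Difference on the log2 scale between replicate 2 and replicate 1 of shNT (blue circles) and of shYEATS2 (red squares), for the 10 members (upper block) and 10 cell cycle markers (lower block). All red squares of the members lie between -0.78 and -0.43, whereas those of CCNB1, AURKA and PLK1 lie above 0.

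The remaining genes of the replication fork were taken as a list of 32, all of which were in the table. Of these, 21 fell, 11 did not pass the test and none rose (edgeR's quasi-likelihood test, FDR under 0.01), against the 12.5% of all genes called lower. The median log2 fold change was -0.95. By role, 8 of 9 genes for loading and unloading PCNA fell, led by RFC3 (log2 fold change -1.92), a subunit of the clamp loader, and by DSCC1 (-1.72) and ATAD5 (-1.43), which belong to alternative loader and unloader complexes. Of 10 genes for helicase activation and fork organisation, 8 fell, led by GINS4 (-1.85) and GINS2 (-1.28), subunits of the GINS complex, and by MCM10 (-1.83), an activator of the helicase.

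Of 8 genes for single-strand binding and primer removal, 4 fell. RNASEH2A, the catalytic subunit of ribonuclease H2, had a log2 fold change of -1.47, the nuclease-helicase gene DNA2 -1.02 and RPA3, a subunit of the single-strand binding protein RPA, -0.90. The remaining subunits of the replicative polymerases and primase were 5 genes, of which 1 fell. That gene was PRIM2, the regulatory subunit of primase, with 1964 and 1989 scaled reads with shNT and 1186 and 962 with shYEATS2 (log2 fold change -0.88). The accessory subunit genes POLD2 (-0.58), POLE3 (-0.29), POLE4 (0.26) and POLD4 (0.48) did not pass the test. POLD4, which encodes the smallest subunit of polymerase δ, had 279 and 298 scaled reads with shNT and 396 and 411 with shYEATS2, an FDR of 0.0239 in edgeR's quasi-likelihood test. It was the 1 gene of the 32 that was higher at an unadjusted p under 0.05, and it was called higher by exactTest but not by DESeq2.

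DNA polymerases and ligases that serve repair, translesion synthesis, end joining, telomeres and mitochondria were taken as the genes most alike in function outside the fork. Of 18 listed, 16 were analysed, and POLN and DNTT were not. Of the 16, 3 fell, 3 rose and 10 did not pass the test, with a median log2 fold change of -0.16. These are 18.8% in each direction, beside 12.5% lower and 12.9% higher among all genes. POLQ (-0.94), which acts in end joining at breaks, MAD2L2 (-0.82), a subunit of polymerase ζ, and POLH (-0.76), a translesion polymerase, were those that fell. LIG4 (0.68), the ligase of non-homologous end joining, REV3L (0.65), the catalytic subunit of polymerase ζ, and POLG (0.56), the mitochondrial polymerase, were those that rose. Thus 9 of 10 members were called lower and 3 of these 16, and the difference between the lists was not tested. The 3 that rose passed neither without shNT replicate 1 nor without shNT replicate 2, where none was called higher, and without shYEATS2 replicate 1 the number called lower was 5.

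**Figure D5:**
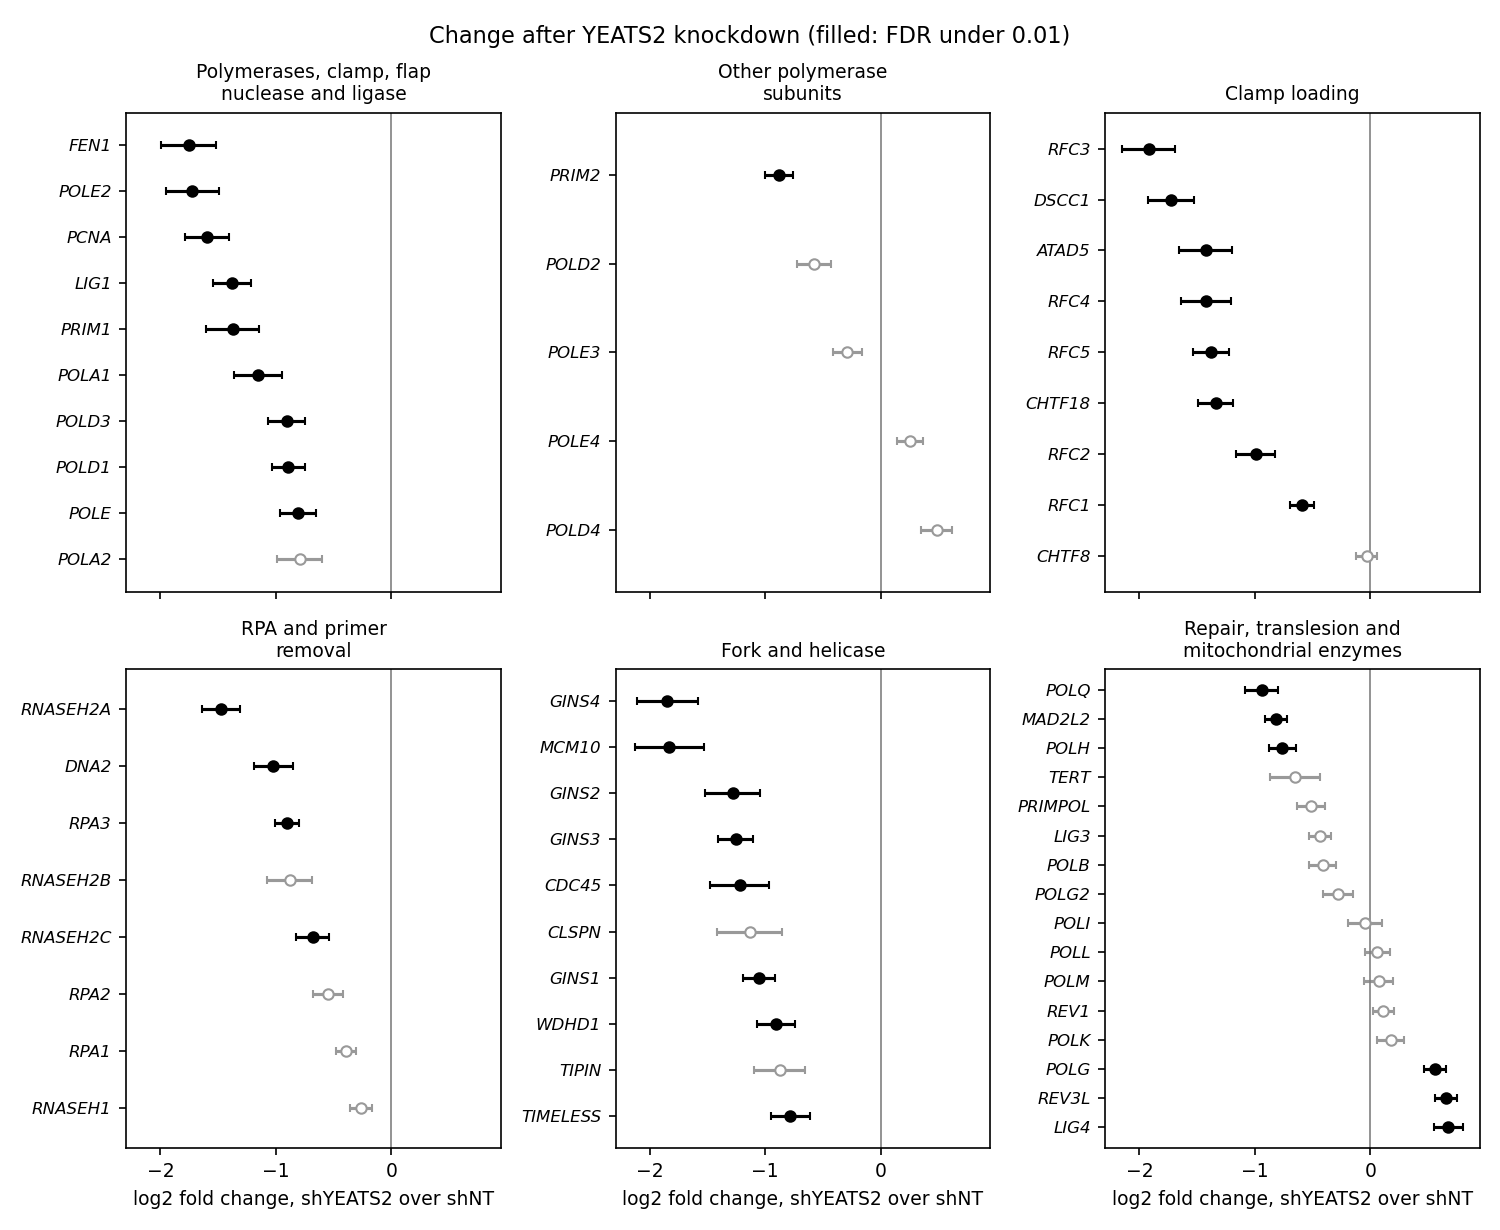
Log2 fold change of shYEATS2 over shNT with its standard error (bars) for the members, 4 groups of other fork genes and the polymerases and ligases outside the fork. Filled points passed an FDR of 0.01. Nearly all filled points lie left of 0, and LIG4, REV3L and POLG lie right of it.

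Genes that regulate PCNA or its ubiquitination were listed as 9, and 5 of them fell while none rose at an FDR under 0.01 by edgeR's quasi-likelihood test. The largest falls were in KIAA0101 (log2 fold change -1.44), which encodes the PCNA-associated factor PCLAF, in DTL (-1.12), whose product directs PCNA-bound proteins to degradation, and in RAD18 (-0.98), a ubiquitin ligase for PCNA. CDKN1A, the p21 inhibitor that binds PCNA, had 2086 and 1558 scaled reads with shNT and 1894 and 2433 with shYEATS2, and its groups overlapped. WDR48, the cofactor of the USP1 enzyme that removes ubiquitin from PCNA, had a log2 fold change of 0.53 and an FDR of 0.0105 in that edgeR test. It was the 1 gene of this list that was higher at an unadjusted p under 0.05, and both DESeq2 and exactTest called it higher.

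Markers of S phase, G2 and mitosis moved with the members. All 10 of them fell, with a median log2 fold change of -1.42, and the largest falls were in RRM2 (-1.74) and TYMS (-1.67), enzymes of nucleotide synthesis, and MKI67 (-1.51). Their summed level was 123880 and 135190 scaled reads with shNT and 48856 and 45964 with shYEATS2. The summed level of the 10 members was 37313 and 34488 with shNT and 18757 and 12724 with shYEATS2. Both sums were lower in the knockdown group without overlap, and the part of the cell cycle markers in the result on the members was not tested.

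The members were also compared with all other genes by their pattern over the 4 libraries. Among 12057 genes outside the lists with a mean of at least 100 reads, MYBL2 lay nearest to the mean pattern of the 10 members (Euclidean distance of centred log2 values 0.0436), followed by CHRNA5, PPIL1, ZRANB2 and RP11-22B23.1 (at most 0.0712). The members themselves lay between 0.170 and 0.554 from their mean pattern. MYBL2, a transcription factor gene, had 12396 and 11480 scaled reads with shNT and 5999 and 4147 with shYEATS2. With 4 points per gene and 2 groups, such likeness is a description only.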

How the data were processed

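RNA-seq was analysed in 4 of the 16 samples, and the ChIP-seq samples were not used here. Per the study's methods, the authors used the RNA-Seq unified mapper for alignment (hg19) and HTSeq with default settings for counting. The submitters' processing notes name HTSeq 0.6.1p1 and TopHat2 2.0.10. The annotation is not given in the sources used here. The deposited values are whole-number counts per gene, not normalized, and every listed gene has at least 101 reads in some library, so lower genes were not analysed. The library kit is not described as stranded, and reads of genes that overlap on opposite strands cannot be told apart. The genes of the table that overlap exons of a member (NACA and HSD17B6 for PRIM1, LIPT2-AS1 for POLD3, FADS2 for FEN1) share at most 4.20% of its annotated exon bases. Annotated genes outside the table, on the same strand, share 16.8% of the exon bases of POLA2, 10.9% of PRIM1 and 8.63% of POLD1. Whether these overlaps affected the counts was not tested. The deposited log2 fold changes and the deposited p-value and FDR columns are the authors' own comparison and were not used.

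A minimum of 10 reads in 2 or more libraries was set, and all 12676 genes met it. The counts were scaled by TMM and compared with the quasi-likelihood test of edgeR 4.0.16 under R 4.3.3, with no block for the replicate number and an FDR threshold of 0.01. Standard errors are the log2 fold change divided by the square root of its F statistic. The fits were tested on simulated data. Alternatives were DESeq2 1.42.0, edgeR's exactTest (the test of the study), other scalings and filters, the replicate block and leaving out each library. Positions and lengths come from GENCODE v44 on GRCh37, to which 98.3% of identifiers matched, and promoters from RefSeq by symbol. Of the genes of the table, 77.8% had a promoter there, too few for a check over the table, and shares over these genes are given as a description. The members and lists were chosen with earlier results of these data known. All members were named, and of each other list the 3 largest changes called and any call against its majority. Where calls were tied, both directions were named, chosen after the values were seen, as were the genes named as not called and the ratios.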

Additional observations from a re-analysis of the deposited data

How the results depend on the processing

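The number of members called lower was 9 with DESeq2 size factors, column totals, no filter and a mean count of at least 100, and 10 with DESeq2, exactTest, the replicate block and an FDR under 0.05. It ranged from 7 to 10 with each library left out, where a lone library is assumed to vary like the other group. All 10 log2 fold changes stayed below 0 in all of these. With column totals in place of TMM, the median of all genes moved from -0.00 to 0.12 and the share of higher calls from 50.8% to 67.0%, while the median of the members was -1.15. The number called lower among the other fork genes lay between 16 and 27.

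Calls among the polymerases and ligases outside the fork depended on the setting. The number called lower was 5 with DESeq2 and with exactTest, 6 with the replicate block and 7 at an FDR under 0.05, and 2 to 5 with a library left out. The number called higher was 0 to 3 with a library left out. Without shNT replicate 1, shNT replicate 2 or shYEATS2 replicate 2, LIG4 did not pass (FDR 0.0226, 0.0334 and 0.0185, edgeR's quasi-likelihood test), and without shNT replicate 1 POLH did not (FDR 0.0131). The cause was not tested, beyond the fewer samples of these fits.

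Over all genes, the calls of 1581 lower and 1630 higher became 2497 and 2596 with exactTest, 2715 and 2742 with the replicate block and 3011 and 3093 at an FDR under 0.05. They were 850 and 775 without shNT replicate 1, 919 and 882 without shNT replicate 2, and 1066 and 1002 without shYEATS2 replicate 2. The differences between replicates 2 and 1 correlated over genes between the groups (0.404), but nothing in the labels says that a number marks a shared culture, so the replicate block is given only here. With 2 libraries in each group, the error rests on few samples.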

Other observations

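The cell cycle markers did not move as a block between the 2 knockdown libraries. In shYEATS2 replicate 2, RRM2, TYMS, MKI67 and CDK1 were lower than in replicate 1, as all 10 replication genes were (RRM2 had 6099 and 4679 scaled reads in replicates 1 and 2). CCNB1, AURKA and PLK1, which act in mitosis, were higher in shYEATS2 replicate 2. The other markers of the list were lower in replicate 2 by less, with -0.19 on the log2 scale for TOP2A, -0.12 for BUB1, which also acts in mitosis, and -0.02 for CCNA2. PLK1 had 3099 and 4092 scaled reads in the shYEATS2 libraries, AURKA 3233 and 4512, and CCNB1 5844 and 7277. Between the shNT libraries all 10 markers of the list were higher in replicate 2, with 7877 and 9929 scaled reads for PLK1. Of the 10 replication genes, 8 were lower in shNT replicate 2. With 1 library on each side, these differences have no replicate check. YEATS2 itself stood at 665 and 673 scaled reads in the shYEATS2 libraries.

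The subunit genes of polymerases δ and ε covered a wide range of log2 fold changes with no gap that was tested. In order they were POLE2 (-1.72), POLD3 (-0.91), POLD1 (-0.89), POLE (-0.81), POLD2 (-0.58), POLE3 (-0.29), POLE4 (0.26) and POLD4 (0.48), of which the first 4 passed an FDR of 0.01 in edgeR's quasi-likelihood test. The shYEATS2 libraries of POLE4 (1556 and 1347 scaled reads) lay above both shNT libraries (1183 and 1248), although its FDR was 0.0979 in the same edgeR test.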
